A study of Mus musculus with 16 samples.

Results

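Histone H3 reaches chromatin through chaperones, proteins that hold newly made or evicted histones and hand them over to DNA. The mRNAs described here are those of 8 H3 chaperones that act outside the HIRA complex: Chaf1a and Chaf1b, Asf1b, Nasp, Daxx, Atrx, Dek and Hjurp. They were taken by gene name from the 55421 genes of a count table of mouse liver RNA-seq, where each name matched 1 entry. All 8 were among the 23018 genes with at least 10 counts in total that entered the tests. The 8 genes, and the lists of partner genes used below, were chosen with earlier results of these data known.

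The 16 libraries came from polyadenylated RNA of whole liver of male C57BL/6 mice and made up 4 groups of 4. Control and HIRA KO livers were each sampled before and after regeneration. HIRA, a chaperone for the replication-independent variant H3.3, was removed in hepatocytes by an AAV8 virus acting through the hepatocyte promoter Tbg. In 1 approach AAV8 Tbg-Cre was given to HIRA fl/fl mice, with wildtype mice given AAV8 Tbg-Cre as control. In the other, wildtype mice received AAV8-Tbg-saCAS9/U6-sgRNA-HIRA, and their controls received AAV8-Tbg-saCAS9/U6-sgRNA-Rosa26. Every mouse, control or HIRA KO, had thus received a virus and a nuclease or recombinase. Each group held 2 libraries of each approach. Mice were 6 months old at injection, and 4 weeks later part of the liver was resected. The lobes removed in that surgery were the samples before regeneration, and the remaining liver, taken 5 days later after euthanasia, gave the samples after it. Lobe, mode of collection and time changed together between these samples and cannot be told apart. The authors place the peak of Ki67 expression earlier than 5 days after surgery, so the samples after regeneration show 1 later time point. The other cell types of the liver kept HIRA in both approaches.

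H3 chaperones divide the work by histone variant and by place. CAF-1, which holds the CHAF1A and CHAF1B proteins, travels with the replication fork through PCNA and deposits the replicative variants H3.1 and H3.2 behind it, supplied by ASF1 and by the soluble histone reserve that NASP protects. DAXX with the remodeller ATRX places H3.3 in heterochromatin and telomeric repeats, DEK binds chromatin and has been described as an H3.3 chaperone, and HJURP loads the centromeric variant CENP-A. Adult hepatocytes seldom divide, but they re-enter the cell cycle after partial hepatectomy, so replicative and replication-independent chaperones can be followed in 1 tissue.

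Total counts per library ran from 15103059 to 21738619, and counts scaled to a common library size (CPM) are given after scaling for library composition. Libraries are numbered 1 to 4 within a group by the running number of the table, which ties no library to a mouse. HIRA KO libraries 1 and 2 at both time points stood apart on the second principal component, at 35.3 to 50.9, against at most 1.48 for any other library. Before regeneration Hira itself lay at 5.21 to 6.18 CPM in control against 3.13 to 4.38 in HIRA KO, and after it at 4.99 to 6.29 against 3.04 to 4.56. These ranges did not overlap. The levels, at 0.614 and 0.619 of control, did not pass the edgeR test, adjusted across all tested genes by the Benjamini-Hochberg method (adjusted p = 0.129 and 0.0666). Of 10 other settings (tools, scalings, filters or sets of libraries), 1 called Hira before regeneration (DESeq2, adjusted p = 0.0131) and 4 called it after (lowest adjusted p = 0.00473, DESeq2). Hepatocyte markers dominated, with 9 of 9 detected and a summed level of 110190 to 168278 CPM, and no marker of the 9 cell type lists was at 0 in all libraries.

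To ask which letters stand upstream of the chaperone genes, RefSeq windows on GRCm38.p6 from 250 bases before to 50 after each annotated start were searched on both strands. They were found for 8 of 8 genes. The motifs were an E2F site, the element of S-phase genes, in 6 spellings (TTTCCCGC, TTTGGCGC, TTTGCCGC, TTTCGCGC, TTCCCGCC and TTGGCGCC), the CHR element of late cell cycle genes (TTTGAA or TTCGAA), the CCAAT box and the E-box CACGTG. No matches overlapped each other. Stretches next to the starts of the 3 genes whose mRNA rose most after hepatectomy are shown with that of Dek, which did not pass the test, with matched motifs in capitals (in Dek, ATTGG is CCAAT read on the opposite strand). They lie at chr8:83955664-83955693 (+ strand, Asf1b, within the 5′ UTR of a longer GENCODE transcript), chr17:56040316-56040415 (+, Chaf1a), chr16:93883801-93883900 (+, Chaf1b) and chr13:47106222-47106321 (- strand, Dek).
Asf1b: aaggcggagccggctaTTTGAAgggagcgc
Chaf1a: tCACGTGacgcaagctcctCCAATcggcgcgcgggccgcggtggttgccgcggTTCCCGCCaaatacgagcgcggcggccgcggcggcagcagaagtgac
Chaf1b: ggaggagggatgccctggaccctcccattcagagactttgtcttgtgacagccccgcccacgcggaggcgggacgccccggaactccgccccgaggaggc
Dek: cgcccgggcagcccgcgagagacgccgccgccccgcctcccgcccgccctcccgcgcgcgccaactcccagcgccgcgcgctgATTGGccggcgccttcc

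Chaf1a was the single chaperone of the 8 with an E2F spelling, TTCCCGCC at positions -47 to -40 counted back from the start, and 4.45% of 32851 mouse windows held 1 of the spellings. It was also the single one with the E-box, at -99 to -94, a motif in 7.15% of windows. The CHR element occurred in 4 of 8 (Asf1b at -14 to -9, Nasp at -130 to -125, Hjurp at 20 to 25 and Dek at 24 to 29), against 19.2% of all windows. CCAAT was found in 7 of 8 genes and 37.4% of all windows, and the window of Asf1b held 4 copies. Chaf1b had no match to any of the motifs, and the rise of its mRNA after regeneration is described next. A match is a run of letters and was not examined for binding.

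**Figure D1:**
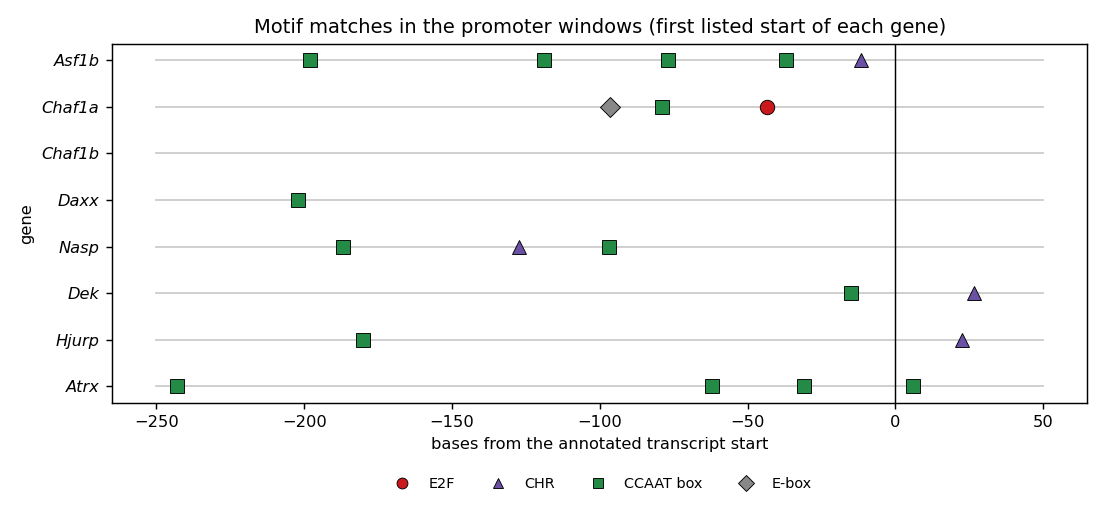
Positions of E2F, CHR, CCAAT and E-box matches in the promoter window of each chaperone gene, with bases from the annotated transcript start on the x axis and 1 gene in each line. Asf1b carries 4 CCAAT boxes upstream of a CHR element, Chaf1a is alone in holding an E2F spelling and an E-box, and Chaf1b has no match.

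The replicative chaperones were compared first, after against before regeneration. Chaf1a, Chaf1b and Asf1b rose in both genotypes, between 2.94-fold and 7.04-fold, while Nasp, which supplies the same pathway, did not pass the test in either. In control livers 3 of the 8 chaperones were called, all higher, where 10.2% of all tested genes were called (6.04% higher and 4.17% lower). In HIRA KO livers 4 of 8 were called, all higher, against 12% of all genes (6.48% higher and 5.53% lower). The median log2 fold change of the 8 was 0.26 in control and 0.35 in HIRA KO, beside 0.00 and 0.02 over all tested genes. In whole liver, fewer cells that express a gene and less of its RNA per cell cannot be told apart.

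Chaf1a (chromosome 17, 56040439 to 56072289, + strand, GENCODE M21 on GRCm38) encodes the large CAF-1 subunit, which binds PCNA. It lay at 1.74, 2.37, 1.95 and 1.78 CPM in control before regeneration and at 3.26, 4.99, 10.5 and 10.3 after it. In HIRA KO it lay at 2.28, 2.40, 1.84 and 2.25 before and 4.21, 6.22, 8.06 and 7.40 after regeneration. Every library after regeneration exceeded every library before it, and control libraries 3 and 4 after regeneration were the highest of all 16. The rise was 3.72-fold in control (95% interval 2.35 to 5.88, adjusted p = 0.00129 with edgeR) and 2.94-fold in HIRA KO (1.87 to 4.64, adjusted p = 0.00401). Of the exon sequence of Chaf1a, 4648 bases or 52.5% overlap exons of Ubxn6 on the opposite strand. Whether counting used the strand is not stated, so Ubxn6 reads may be among them. Ubxn6 itself lay at 16.0 to 26.9 CPM and had log2 fold changes of -0.29 and -0.15 in these comparisons, neither of them called.

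Chaf1b (chromosome 16, 93883901 to 93906115, +) encodes the WD40 subunit of CAF-1. Its control libraries held 1.69, 1.02, 0.744 and 0.592 CPM before and 2.82, 2.35, 3.22 and 3.98 after regeneration, with no overlap. In HIRA KO they held 1.48, 1.47, 0.816 and 0.752 before and 3.85, 6.53, 4.55 and 3.23 after. The order of libraries thus differed from that of Chaf1a, with HIRA KO library 2 the highest. The gene rose 3.02-fold in control (1.86 to 4.91, adjusted p = 0.00531 with edgeR) and 3.99-fold in HIRA KO (2.46 to 6.47, adjusted p = 0.00114). The ratio of Chaf1b to Chaf1a, from FPKM (fragment counts divided by transcript length and sequencing depth), was 1.55 ± 0.604 (SD, n = 4) in control against 1.78 ± 0.445 in HIRA KO before regeneration. After it the ratio was 1.12 ± 0.568 against 1.68 ± 0.701. None of the 4 contrasts of the log2 ratio passed an exact two-sided permutation test (p = 0.171 to 0.657, adjusted p = 0.40 to 0.657). Which of the subunits was higher depended on the length used. Per kilobase of annotated exon, mean Chaf1b against Chaf1a before regeneration was 0.216 against 0.221 CPM in control and 0.241 against 0.248 in HIRA KO. After it the means were 0.661 against 0.821 in control and 0.970 against 0.731 in HIRA KO.

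Rbbp4, whose product is the small CAF-1 subunit but also serves several histone-modifying complexes, went the other way in control livers. It fell by 0.44 on the log2 scale there (adjusted p = 0.0247 with edgeR), from 118 ± 12.7 to 87.0 ± 6.53 CPM (SD, n = 4). The call was lost without control before library 2 (adjusted p = 0.0889), without control after library 4 (0.0625) and with limma on FPKM (0.145 and 0.148). In HIRA KO its log2 fold change was -0.22 (adjusted p = 0.258). Of the 3 CAF-1 subunit genes, 2 were thus called higher and 1 lower in control livers.

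Asf1b (chromosome 8, 83955507 to 83970197, +) encodes the ASF1 paralogue found mainly in dividing cells, which passes H3-H4 dimers to CAF-1. Before regeneration it was scarce, at 0.348, 0.430, 0.744 and 0.651 CPM in control and 0.741, 0.734, 1.36 and 0.689 in HIRA KO, from 7 to 20 reads a library. After regeneration control libraries reached 0.940, 3.44, 6.05 and 4.85 CPM and HIRA KO libraries 2.54, 2.75, 5.03 and 3.17, from 15 to 111 reads. The groups did not overlap within a genotype, and control library 1 was by far the lowest of the libraries after regeneration. The rise was the largest of the 8 chaperones in control, 7.04-fold (3.60 to 13.7, adjusted p = 0.00122 with edgeR), and 3.83-fold in HIRA KO (2.02 to 7.27, adjusted p = 0.00905). Without the 4 HIRA KO libraries that stood apart, the HIRA KO call was lost (adjusted p = 0.0832) at a log2 fold change of 2.03 against 1.94 with them.

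Asf1a, the paralogue that works with the HIRA complex, allowed a comparison within the ASF1 pair. Before regeneration Asf1b stood at 0.0726 ± 0.0372 of Asf1a in FPKM in control, with 0.0976 ± 0.0314 in HIRA KO (SD, n = 4). After it the ratio was 0.366 ± 0.203 in control, with 0.217 ± 0.0451 in HIRA KO. By FPKM, Asf1a thus had the higher mean of the pair in all 4 groups. Per kilobase of annotated exon, however, mean Asf1b was above mean Asf1a in control after regeneration, at 1.63 against 1.38 CPM. In the other groups Asf1a was higher on that scale too. In each genotype the lowest FPKM ratio after regeneration exceeded the highest one before it, with log2 differences of 2.27 in control and 1.19 in HIRA KO. Each gave p = 0.0286 in an exact two-sided permutation test, the smallest that 4 against 4 libraries can give, and adjusted p = 0.0571. HIRA KO and control did not differ detectably in the ratio, with log2 differences of 0.53 before and -0.55 after regeneration (exact permutation p = 0.314 and 0.343). Without control after library 1, which held the lowest ratio of its group (0.117), the last difference was -1.02 and the control rise was 2.74. Each then had adjusted p = 0.0381 (exact permutation test), from the smallest p that 3 against 4 libraries can give, 0.0286. The fall from 0.0571 for the control rise came from the adjustment, as more contrasts then sat at that smallest p, and it used fewer libraries.

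Asf1a itself rose in HIRA KO after regeneration, by 0.54 on the log2 scale (adjusted p = 0.0321 with edgeR). It lay at 4.92, 6.27, 5.71 and 4.82 CPM before and at 6.57, 8.13, 8.96 and 8.01 after regeneration there. In control the log2 fold change was -0.03. The call was lost without HIRA KO before library 1, 3 or 4 and without HIRA KO after library 2 or 3 (adjusted p = 0.0697, 0.0533, 0.0934, 0.0549 and 0.0961). It was also lost without the 4 libraries that stood apart (0.0557), without a count filter (0.0546) and in a fit of the HIRA KO groups alone (0.0658). The difference between the genotypes was 0.57 on the log2 scale and did not pass the test (adjusted p = 0.620, edgeR).

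Nasp (chromosome 4, 116601052 to 116627941, -) encodes a chaperone that shields soluble H3-H4 from degradation. Control libraries held 14.9, 14.7, 13.2 and 15.0 CPM before and 11.8, 13.1, 17.9 and 18.1 after regeneration. Control after libraries 1 and 2 lay below all control libraries before regeneration, and libraries 3 and 4 lay above them. HIRA KO libraries held 17.7, 19.8, 14.1 and 14.3 before and 17.8, 23.8, 19.3 and 18.4 after. The log2 fold changes were 0.08 in control (95% interval -0.24 to 0.40) and 0.27 in HIRA KO (-0.05 to 0.59), with adjusted p of 0.823 and 0.263 by edgeR. These intervals leave out a rise of the size seen for Chaf1a, Chaf1b and Asf1b.

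**Figure D2:**
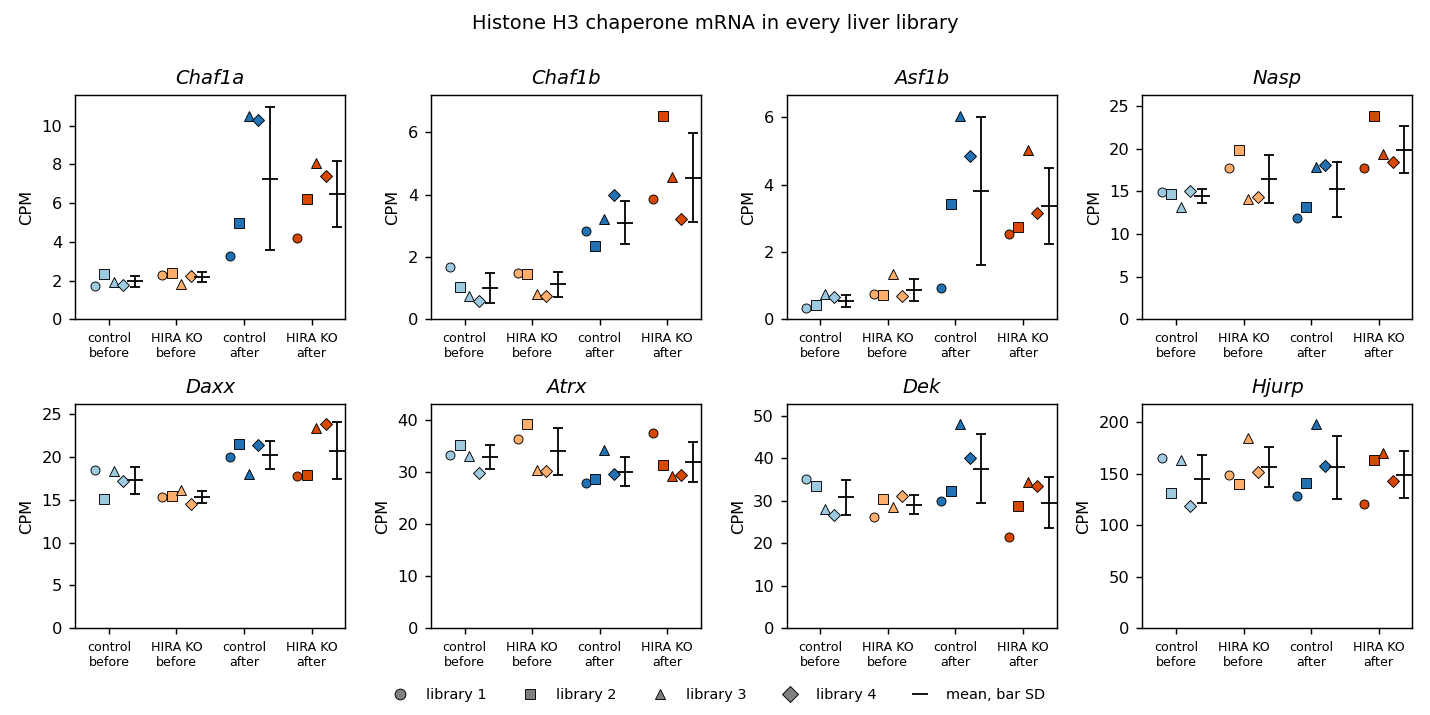
Library-size-scaled counts (CPM, y axis from 0) of the 8 H3 chaperone mRNAs in each of the 16 liver libraries, by group on the x axis, with the mean and SD of 4 libraries. Chaf1a, Chaf1b and Asf1b lie higher in all libraries after regeneration than in those before it within each genotype, whereas the groups of Atrx, Nasp, Dek and Hjurp overlap.

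Markers of dividing cells and of other cell types moved with regeneration too. Mki67, the proliferation marker, lay at 0.796, 1.29, 2.23 and 1.01 CPM in control before and 11.8, 37.8, 71.0 and 77.5 after regeneration. In HIRA KO it lay at 6.14, 4.47, 1.56 and 1.82 before and at 24.4, 10.5, 72.2 and 27.0 after. It rose by 5.22 on the log2 scale in control (adjusted p = 0.0019 with edgeR) and by 3.24 in HIRA KO (adjusted p = 0.0127). Control after library 1, the lowest for Asf1b and Chaf1a in its group, was also the lowest there for Mki67. HIRA KO after library 2 had the least Mki67 of its group and the most Chaf1b. Kupffer cell markers (8 of 8 detected) summed to 170 to 449 CPM in control livers before regeneration and 789 to 1004 after it, with 224 to 260 and 769 to 1190 in HIRA KO. Neutrophil markers (4 of 4) summed to 1.00 to 6.74 CPM before and 6.57 to 15.8 after. In control, T and NK cell markers (6 of 6) summed to 1.44 to 2.29 CPM before and 2.82 to 3.65 after, and B cell markers (4 of 4) to 1.45 to 3.43 and 4.13 to 6.65. In HIRA KO both sums overlapped between the time points, at 1.19 to 4.97 and 2.37 to 4.51 CPM and at 2.18 to 8.78 and 4.74 to 7.95. The mitochondrial share of counts was 6.02 to 6.76% before and 4.43 to 5.46% after in control, against 5.80 to 6.97% and 4.14 to 6.01% in HIRA KO. The part of these cells and of the mitochondrial share in the chaperone values was not tested.

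**Figure D3:**
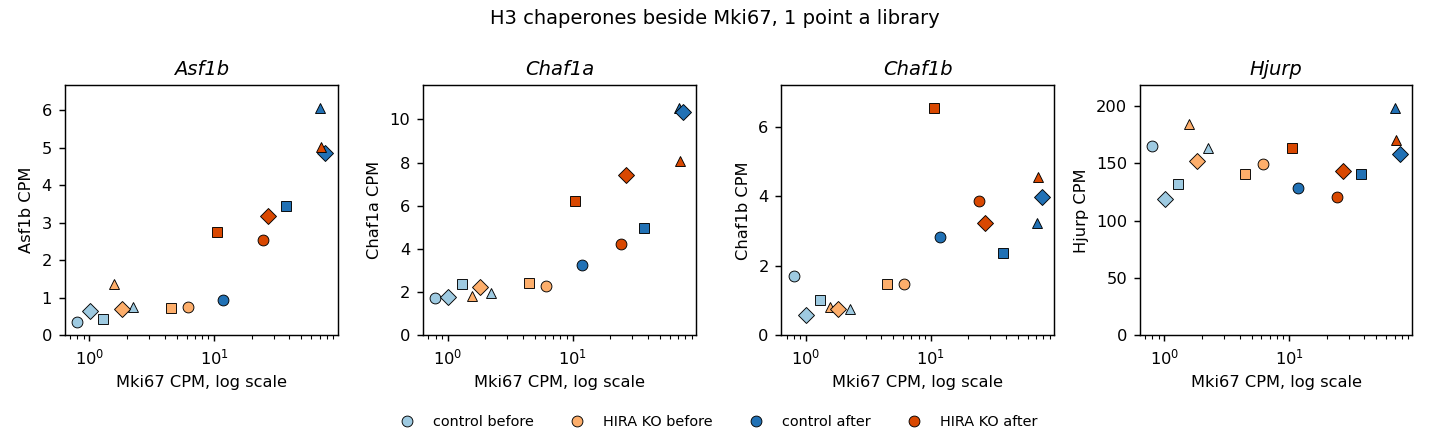
CPM of H3 chaperones (y axis, from 0) against CPM of Mki67 (x axis, log scale), with 1 point for each of 16 libraries coloured by group. The libraries before regeneration sit at the left, at 0.796 to 6.14 CPM of Mki67, and the control library with 11.8 CPM of Mki67 after regeneration is also the lowest of its group for Asf1b, at 0.940 CPM.

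The H3.3 chaperones of heterochromatin, DAXX and ATRX, were examined next. Daxx was called higher after regeneration in HIRA KO livers, by 1.35-fold, and Atrx was not called in any comparison. Daxx (chromosome 17, 33909414 to 33915590, +) encodes the subunit that holds H3.3-H4. In HIRA KO it lay at 15.3, 15.4, 16.1 and 14.5 CPM before and 17.8, 17.9, 23.4 and 23.8 after regeneration, with no overlap. In control it lay at 18.6, 15.1, 18.3 and 17.2 before and 20.0, 21.5, 18.0 and 21.4 after, with overlap. The log2 fold change was 0.44 in HIRA KO (95% interval 0.19 to 0.68, adjusted p = 0.0206 with edgeR) and 0.23 in control (-0.01 to 0.47, adjusted p = 0.241). The 2 changes did not differ detectably, with a difference of 0.21 on the log2 scale (-0.14 to 0.55, adjusted p = 0.841). The HIRA KO call was lost without HIRA KO before library 4 (adjusted p = 0.0629) or HIRA KO after library 3 (0.0664), in a fit of the HIRA KO groups alone (0.0629) and with limma on FPKM (0.0531 and 0.0558).

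Atrx (chromosome X, 105797615 to 105929403, -) encodes the SWI/SNF-type remodeller that brings DAXX to repeats. It ranged from 29.8 to 35.3 CPM before and from 27.9 to 34.2 after regeneration in control livers, with 30.2 to 39.2 and 29.3 to 37.6 in HIRA KO. The groups overlapped throughout. Its log2 fold changes after regeneration were -0.13 in control (95% interval -0.36 to 0.11) and -0.09 in HIRA KO (-0.33 to 0.15). With limma on FPKM both were above 0 (0.05 to 0.12), and none passed the test. Among the 14 listed partners in heterochromatin and PML bodies, 2 were called higher and 0 lower in control, and 3 higher and 0 lower in HIRA KO, with medians of 0.19 and 0.08. Over all tested genes 10.2% were called in control (6.04% higher) and 12% in HIRA KO (6.48% higher). Sp100, a PML body component, rose by 0.47 in control (adjusted p = 0.0267 with edgeR) and 0.68 in HIRA KO (0.00312). Hells, a remodeller that helps maintain DNA methylation, rose by 2.05 (adjusted p = 0.00984) and 1.52 (0.0382), though limma on FPKM gave adjusted p of 0.329 to 0.808. Pml itself had log2 fold changes of 0.18 and 0.40 and was not called (adjusted p = 0.503 and 0.0729).

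Several of these partner calls rested on single libraries. In control, Sp100 lost its call without control before library 3 or 4 or control after library 1, 2 or 4 (adjusted p up to 0.0970, edgeR). In HIRA KO, Hells lost its call without HIRA KO before library 1, 3 or 4 or HIRA KO after library 2 or 3 (up to 0.106). Sp100 in HIRA KO and Hells in control kept an adjusted p under 0.05 in each of 8 such fits. The count of 3 in HIRA KO fell to 1 without HIRA KO before library 3 or 4 or HIRA KO after library 3, and that of 2 in control to 1 without control before library 3 or 4 or control after library 2 or 4.

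Dek (chromosome 13, 47084775 to 47106201, -) encodes an abundant DNA-bending chromatin protein. Control libraries held 35.2, 33.4, 28.1 and 26.6 CPM before and 29.9, 32.4, 48.0 and 40.0 after regeneration. HIRA KO libraries held 26.2, 30.4, 28.5 and 31.2 before and 21.3, 28.8, 34.3 and 33.6 after. Libraries 3 and 4 were the highest after regeneration in both genotypes, but the groups overlapped. The log2 fold change was 0.28 in control (95% interval -0.05 to 0.62, adjusted p = 0.301 with edgeR) and 0.02 in HIRA KO (-0.31 to 0.36, adjusted p = 0.953). Of the exon sequence of Dek, 505 bases or 15.9% overlap Kdm1b, a histone demethylase gene on the opposite strand with 12.0 to 33.3 CPM.

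Hjurp (chromosome 1, 88262471 to 88277633, -) encodes the chaperone that delivers CENP-A to centromeres after mitosis. It had the most counts of the 8, 44620 in all, and was not called in any comparison. Control libraries held 165, 132, 164 and 118 CPM before and 128, 141, 198 and 158 after regeneration. HIRA KO libraries held 149, 141, 185 and 152 before and 120, 164, 170 and 143 after. The groups again overlapped, with log2 fold changes of 0.11 (95% interval -0.22 to 0.44) and -0.07 (-0.40 to 0.26) and adjusted p of 0.752 and 0.83 by edgeR. No exon of Hjurp is shared with another annotated gene, and which of its exons the reads came from is not in the table.

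Most of the listed centromere partners of HJURP, chosen with earlier results of these data known, rose in the comparisons in which Hjurp was not called. Of 12, 10 were called higher and 0 lower in control, with a median log2 fold change of 2.43, and 9 higher and 0 lower in HIRA KO, with a median of 1.76. The shares called higher over all tested genes were 6.04% and 6.48%. Cenpa, the histone that HJURP carries, rose by 2.63 in control (adjusted p = 0.00545 with edgeR), from 4.26 ± 0.715 to 26.3 ± 14.1 CPM (SD, n = 4). In HIRA KO it rose by 1.71 (adjusted p = 0.0392), from 5.60 ± 1.95 to 18.3 ± 13.6 CPM. Cenpm rose by 2.23 (0.0153) and 2.11 (0.0253), Cenpc1 by 0.71 in control (0.0448) and Cenpl by 0.72 in HIRA KO (0.0341), all of them parts of the inner kinetochore. Among these, Cenpa in control stayed under 0.05 whichever of 8 libraries was omitted.

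Other named centromere calls also depended on single libraries. In HIRA KO, Cenpa lost its call without any HIRA KO library before regeneration (adjusted p = 0.0548 to 0.105, edgeR) or without HIRA KO after library 3 (0.110). There Cenpm lost it without HIRA KO before library 1, 2 or 3 or after library 3 (0.0512 to 0.10), and Cenpl without before library 2 or 4 or after library 3 or 4 (0.0548 to 0.119). In control, Cenpm lost it without control before library 2 or 4 (0.0520 and 0.0564), and Cenpc1 without before library 1, 2 or 4 or after library 2, 3 or 4 (0.0610 to 0.143). The HIRA KO count of 9 fell to 4, 5, 3 and 2 without HIRA KO before library 1, 2, 3 and 4, to 1 without HIRA KO after library 3, and to 5 without the 4 libraries that stood apart.

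Of the 22 listed replication fork partners of CAF-1, 15 were called higher and 0 lower in control regeneration (median log2 fold change 1.00) and 13 higher and 0 lower in HIRA KO (median 0.92), by edgeR. Of all tested genes, 6.04% were called higher in control and 6.48% in HIRA KO. Dnmt1, the maintenance DNA methyltransferase, rose by 0.89 in control (adjusted p = 0.000219 with edgeR) and 0.46 in HIRA KO (0.0149). Pcna, the sliding clamp that CHAF1A binds, rose by 0.52 (0.0266) and 0.53 (0.0218), from 21.9 ± 0.918 to 31.3 ± 5.17 CPM in control (SD, n = 4). Mcm6, a subunit of the replicative helicase, rose by 3.03 in control (0.000235), from a mean of 2.93 to 23.9 CPM, and by 2.25 in HIRA KO (0.00114), from 4.49 to 21.5 CPM. Mcm7, another subunit, rose by 0.87 in control (0.0172), from 13.6 to 24.8 CPM, and in HIRA KO had a log2 fold change of 0.57 (0.104), with means of 12.8 and 19.0 CPM. All 19 mitotic genes were called higher in control (median 4.89) and 18 of 19 in HIRA KO (median 3.21), among them Cdc20, the activator of the anaphase-promoting complex, by 5.63 (0.0120) and 4.17 (0.0343), and the cytokinesis motor Kif20a by 5.15 (0.00721) and 3.52 (0.0295). These medians stand beside log2 fold changes of 1.60 to 2.81 for Chaf1a, Chaf1b and Asf1b in control and 1.56 to 2.00 in HIRA KO.

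Single libraries again carried part of these calls. Pcna in control lost its call without any control library before regeneration or without control after library 3 or 4 (adjusted p = 0.0521 to 0.108, edgeR), and in HIRA KO without before library 1 or after library 2 or 3 (0.0503 to 0.0602). Mcm7 lost it without control before library 2 or control after library 3 or 4 (0.0551 to 0.0698). The control count of 15 fell to 8 without control before library 2, 8 without control after library 3 and 7 without control after library 4. In HIRA KO the mitotic count of 18 fell to 7, 3 and 3 without HIRA KO before library 2, 3 and 4, and to 3 without HIRA KO after library 3. There Cdc20 and Kif20a lost their calls without any HIRA KO library before regeneration or without after library 3 (0.0504 to 0.109). Dnmt1 in control, Mcm6 in HIRA KO and Mki67 in both were called in every such fit, and Dnmt1 in HIRA KO was lost without the 4 libraries that stood apart (0.0733).

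Among 20 other histone chaperones and assembly factors, 4 were called higher and 1 lower (Rbbp4) in control and 4 higher and 0 lower in HIRA KO, with medians of 0.14 in both. The shares over all tested genes were 6.04% higher and 4.17% lower in control, and 6.48% higher and 5.53% lower in HIRA KO. Hat1, which acetylates new H4 before it is handed over, rose by 0.69 in control (adjusted p = 0.0260 with edgeR) and 0.88 in HIRA KO (0.00666). Anp32b, an acidic H3-H4 chaperone, rose by 0.37 (0.0242) and 0.35 (0.0276), and Dnajc9, a heat-shock co-chaperone for H3-H4, by 0.69 (0.0315) and 0.98 (0.0045). In control, Hat1 and Anp32b lost the call without control before library 1, 3 or 4 or control after library 3 or 4 (0.0561 to 0.133). In HIRA KO, Anp32b lost it without before library 2 or 4 or after library 2 or 3 (0.0504 to 0.0850). The control count of 5 fell to 2 without before library 1, 3 or 4, to 3 without before library 2, to 2 without after library 3 and to 1 without after library 4.

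Of the 7 genes of the HIRA complex and H3.3, 0 were called in control, against 10.2% of all tested genes, with a median of -0.03. In HIRA KO 1 was called higher (Asf1a) and 1 lower, against 12% of all tested genes, with a median of 0.09. The one called lower was Ubn1, a HIRA complex subunit, at a log2 fold change of -0.54 (adjusted p = 0.00388 with edgeR). Its call was lost without the 4 libraries that stood apart (0.0633, log2 fold change -0.44), and then 0 of the 7 genes were called.

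HIRA KO was then compared with control, to ask whether loss of the HIRA chaperone went with a change in the mRNA of the others. None of the 8 chaperones was called at either time. Before regeneration 0 of 8 were called, against 0.0391% of all tested genes. At an unadjusted p under 0.05 by edgeR were 0 of 8, against 3031 of 23018 genes. After regeneration 0 of 8 were called, against 0.491% of all genes. At an unadjusted p under 0.05 by edgeR were 2 of 8, Nasp and Dek, against 3629 of 23018 genes. DESeq2 and limma also called 0 of 8 at both times. Median log2 fold changes of the 8 were 0.13 and -0.02, beside 0.01 and 0.02 over all tested genes. So few genes of the whole table were called that a count of 0 among 8 lies near this background. Counts over the whole table moved with the tool, to 375 and 910 genes with DESeq2 against 9 and 113 with edgeR.

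The intervals show what sizes of change remained possible. Before regeneration the chaperones with more than 10 CPM had narrow intervals on the log2 scale, from -0.42 to 0.07 for Daxx, -0.19 to 0.28 for Atrx, -0.13 to 0.51 for Nasp, -0.42 to 0.25 for Dek and -0.22 to 0.44 for Hjurp. Those of the scarce mRNAs were wider, from -0.52 to 0.85 for Chaf1a, -0.58 to 0.88 for Chaf1b and -0.33 to 1.72 for Asf1b. A doubling of Daxx, Atrx, Nasp, Dek, Hjurp, Chaf1a or Chaf1b thus lay outside its interval, whereas a doubling of Asf1b did not.

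After regeneration Nasp was 1.30-fold higher in HIRA KO than in control (95% interval 1.05 to 1.62), which did not pass the test (adjusted p = 0.222, edgeR). HIRA KO libraries at 17.8 to 23.8 CPM overlapped control libraries at 11.8 to 18.1. Dek stood at 0.785 of control (0.623 to 0.989, adjusted p = 0.291), again with overlap, 21.3 to 34.3 against 29.9 to 48.0 CPM. The overlapping gene Kdm1b had a log2 fold change of -0.64 in this comparison (adjusted p = 0.103). Chaf1b had a log2 fold change of 0.55 (-0.09 to 1.20, adjusted p = 0.396). The other 5 lay between -0.19 and 0.08. Asf1b, at -0.19 (-1.02 to 0.65), and Chaf1a, at -0.17 (-0.79 to 0.44), changed sign when single libraries were left out, with ranges of -0.51 to 0.13 and -0.42 to 0.09.

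The difference between the HIRA KO effects after and before regeneration was called for 0 of 8 chaperones and for 0 of all tested genes (0%), with 0 and 1568 at an unadjusted p under 0.05 by edgeR. DESeq2 called 67 of all genes and 0 of the 8. Asf1b had the largest difference of the 8, -0.88 on the log2 scale, with an interval of -2.20 to 0.44 (adjusted p = 0.819). The others lay between -0.34 for Chaf1a and 0.40 for Chaf1b. A smaller rise of Asf1b in HIRA KO than in control was therefore not shown at this depth.

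**Figure D4:**
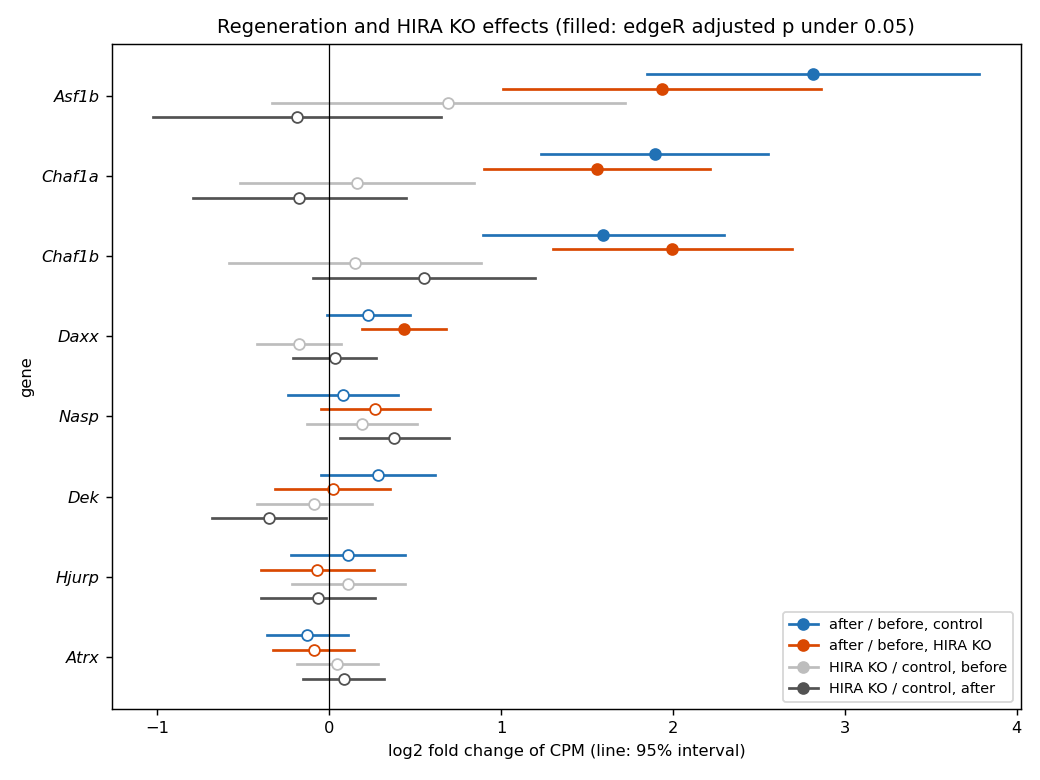
Log2 fold changes (x axis) with 95% intervals for each of the 8 H3 chaperones (y axis) in the comparisons of regeneration and of HIRA KO, filled where the edgeR adjusted p was under 0.05. Filled points occur only for Chaf1a, Chaf1b and Asf1b in both regeneration comparisons and for Daxx after regeneration in HIRA KO, and the HIRA KO comparisons hold none.

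The genes around HIRA were read with the same tests. H3f3a, 1 of the genes for H3.3, was 1.70-fold higher in HIRA KO than control after regeneration (adjusted p = 0.0383 with edgeR) and 1.62-fold before it (adjusted p = 0.0813). Before regeneration the control libraries held 62.9, 53.5, 54.8 and 61.2 CPM, against 103, 106, 78.4 and 89.0 in HIRA KO. After it they held 59.8, 57.1, 62.6 and 57.6, against 107, 130, 83.3 and 81.8. The ranges did not overlap at either time, and HIRA KO libraries 1 and 2 were the highest at both. In these 2 libraries before regeneration, stellate cell and matrix markers summed to 626 and 429 CPM, against 201 to 222 in control, and cholangiocyte markers to 167 and 119 CPM, against 69.4 to 98.6. After it the sums were 452 and 356 CPM against 162 to 395, and 154 and 123 CPM against at most 136. Hepatocyte markers in these 2 libraries before regeneration summed to 168278 and 151909 CPM, against 110190 to 123766 in control. HIRA KO libraries 3 and 4 before regeneration had stellate cell and matrix sums of 225 and 236 CPM. The part of these cells in the H3f3a values was not tested. The call after regeneration was lost without any control after library (adjusted p = 0.0691 to 0.115) or without HIRA KO after library 1 or 2 (0.0859 and 0.113). Without the 4 libraries that stood apart, the log2 fold change was 0.50 against 0.76 (adjusted p = 0.112). The call was also lost with limma on either FPKM scale (adjusted p = 0.0621 and 0.0599) and with the compared groups alone (0.174). Before regeneration a call was gained with DESeq2 (adjusted p = 0.000897) and without a count filter (0.0338). H3f3b, the other H3.3 gene, had log2 fold changes of 0.17 before and 0.45 after (adjusted p = 0.680 and 0.176), and Asf1a of 0.09 and 0.66 (0.862 and 0.0649).

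In HIRA KO against control, edgeR called 0 genes before regeneration in the listed groups of partner genes, against 0.0391% of all tested genes. After regeneration its single call was H3f3a, of 7 HIRA complex and H3.3 genes, and the other lists held 0, against 0.491% of all genes. Over all genes DESeq2 called 375 before and 910 after regeneration. DESeq2 called 2 of those 7 before (H3f3a and Hira) and 1 of 14 heterochromatin partners. After regeneration DESeq2 called 3 of the 7 (H3f3a, Hira and Asf1a, the last at adjusted p = 0.00332), and so did edgeR with filterByExpr (Asf1a at 0.0432). The numbers at an unadjusted p under 0.05 by edgeR, before and after regeneration, were 3031 and 3629 of all 23018 tested genes. In the lists they were 2 and 5 of 7 HIRA complex and H3.3 genes, 3 and 1 of 20 other chaperones and 1 and 1 of 12 centromere partners. They were 2 and 3 of 14 heterochromatin partners, 2 and 1 of 22 replication fork partners and 0 and 0 of 19 mitotic genes. The mitotic list had a median log2 fold change of 0.87 before, with 19 of 19 above 0, and of -0.72 after, with 0 of 19 above 0. Its summed level before regeneration was 46.7, 36.9, 16.3 and 16.5 CPM in HIRA KO libraries 1, 2, 3 and 4, against 12.6 to 26.2 in control. After regeneration the sum ran from 78.4 to 658 CPM in HIRA KO, against 80.4 to 686 in control. None of these mitotic differences was called.

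Levels were then compared between genes, per transcript length in FPKM. By group mean, Hjurp was the highest and Dek next in all 4 groups, and the replicative Chaf1a, Chaf1b and Asf1b were the lowest. In control before regeneration the means (n = 4) were 28.7 ± 5.36 for Hjurp, 11.7 ± 2.14 for Dek, 6.34 ± 0.883 for Daxx, 5.72 ± 0.505 for Nasp, 3.26 ± 0.175 for Atrx, 0.470 ± 0.104 for Chaf1b, 0.336 ± 0.141 for Chaf1a and 0.330 ± 0.147 for Asf1b (SD). Daxx and Nasp did not differ beyond their spread there, and neither did the last 3. The closeness of Daxx and Nasp depended on the length used, with means of 5.48 and 1.92 CPM per kilobase of annotated exon. Atrx was 6.93 times Chaf1b, with no overlap.

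The same order held in control after regeneration down to Atrx, with 32.4 ± 6.95 FPKM for Hjurp, 16.1 ± 4.32 for Dek, 7.87 ± 0.886 for Daxx, 6.64 ± 1.92 for Nasp and 3.58 ± 0.590 for Atrx (SD, n = 4). Asf1b then followed at 2.05 ± 1.24, Chaf1a at 1.62 ± 0.713 and Chaf1b at 1.54 ± 0.363, and the range of Asf1b reached that of Atrx. In HIRA KO, Nasp ranked above Daxx in FPKM at both times, at 6.70 ± 1.44 against 5.79 ± 0.472 before and 8.84 ± 0.831 against 8.45 ± 2.16 after, with overlapping ranges. Per kilobase of annotated exon this order was reversed, with Daxx at 4.86 CPM against 2.19 for Nasp before and 6.58 against 2.64 after. In FPKM, Hjurp stood at 31.6 ± 3.70 and 32.0 ± 5.16 in HIRA KO, Dek at 11.8 ± 0.757 and 13.7 ± 2.42 and Atrx at 3.70 ± 0.798 and 3.85 ± 0.569. Chaf1b, Asf1b and Chaf1a stood at 0.566 ± 0.263, 0.485 ± 0.135 and 0.307 ± 0.0818 before and 2.27 ± 0.641, 1.90 ± 0.509 and 1.44 ± 0.314 after, with overlap between neighbours. When counts per kilobase of annotated exon replaced FPKM, Hjurp and Dek kept the first and second place in all groups, while 6, 3, 6 and 4 of the 8 genes kept theirs before regeneration in control and HIRA KO and after it in control and HIRA KO, in that order.

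**Figure D5:**
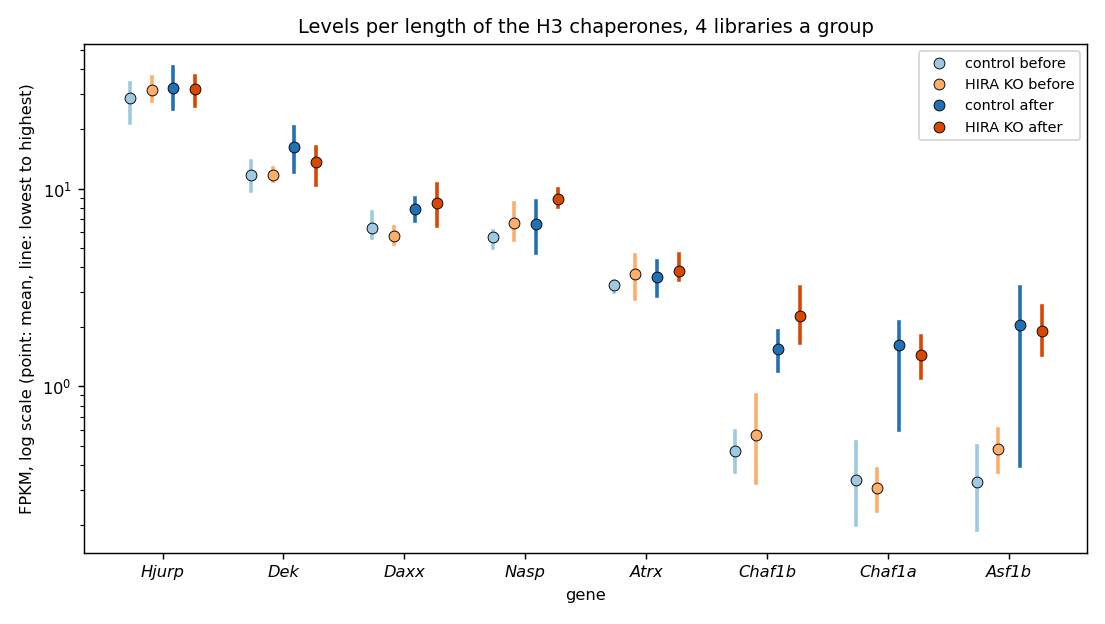
FPKM (y axis, log scale) of the 8 H3 chaperones (x axis) in the 4 groups, with the mean as a point and the lowest to highest of 4 libraries as a line. The mean levels of Hjurp and Dek lie above those of the rest in every group, although the range of Dek meets that of Daxx in HIRA KO after regeneration, and Chaf1a, Chaf1b and Asf1b lie below 1 FPKM in all libraries before regeneration.

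The libraries share groups and depth, and HIRA KO libraries 1 and 2 stood apart, so what follows is a description. The genes whose levels were most alike across the 16 libraries were taken from 13176 genes, by Pearson's r of log2(CPM + 1). For Chaf1a these were Rad51ap1 (r = 0.972), which works in homologous recombination, Oip5 (0.968), a subunit of the Mis18 complex that prepares centromeres for HJURP, and Fignl1 (0.966). For Asf1b they were the ubiquitin-conjugating enzyme genes Ube2t (0.963) and Ube2s (0.962) and the microtubule regulator Stmn1 (0.959). Chaf1b was most like Lgals3 (0.957), which encodes galectin-3, Maged2 (0.950) and the small nucleolar RNA host gene Snhg1 (0.945), none of them a replication gene by name.

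Among the chaperones that were steadier, Daxx was most like Ifi211 (r = 0.899) and Oasl2 (0.899), both interferon-inducible genes, and Shisa5 (0.895). Dek was most like Lin54 (0.890), which encodes the subunit of the DREAM complex that reads the CHR element, Gm11914 (0.879) and the lamin B receptor gene Lbr (0.874). Nasp was most like Gsta4 (0.908), Smox (0.890) and Il17rc (0.884), and Atrx like Strn3 (0.882), Ccnt1 (0.875) and Slco2a1 (0.842). Hjurp had the least close matches of the 8, Tk1 (0.753), the thymidine kinase of S phase, Tmtc4 (0.746) and Rhpn2 (0.737).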

How the data were processed

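RNA-seq of 16 mouse liver libraries was analysed in 4 groups taken from the labels. According to the methods, the authors trimmed reads with Trim Galore, aligned them to mm10 with STAR and counted reads per gene with HOMER. Per the labels, libraries were made with a directional kit. The submitters' processing notes name STAR, HTSeq, Cufflinks and mm10. The strand setting of the counting, and the tool behind the FPKM, are not given in the sources used here. The deposited count table held whole-number counts of 55421 genes, and the deposited FPKM table held fragments scaled by length and depth. Its empty cells were read as 0.

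The columns give genotype, time and a running number, not the mouse or the deletion approach, so each was 1 replicate of its group. A mouse could give tissue both before and after regeneration, but the columns do not tie such libraries together, so the tests treat them as independent. The 24 pairs of libraries within groups differed by a chi-square of 12.4 to 135 per degree of freedom, more than sampling noise.

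Genes with at least 10 counts in total were tested with edgeR 4.0.16 in R 4.3.3 (robust quasi-likelihood test, TMM scaling, 1 model of 4 group means). Adjustment was by Benjamini-Hochberg over all 23018 genes, with calls at an adjusted p under 0.05. The standard error was the log2 fold change over the square root of F. CPM used TMM-scaled totals. Ratios of FPKM were compared by exact two-sided permutation tests, adjusted over 4 contrasts, on log2 ratios. Alternatives were RLE and upper quartile scaling, no filter, filterByExpr, DESeq2 1.42.0, no robust option, the compared groups alone, limma 3.58.1 on log2(FPKM + 0.1) or log2(FPKM + 1), and leaving out each library. The scripts were tested on simulated data. Gene coordinates are from GENCODE M21, which matched 54587 of the 55421 IDs, and promoter windows from RefSeq. Principal components used log2(CPM + 1).

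The 8 genes and all lists were chosen with earlier results of these data known. Genes were named by a rule: the 8 members, Hira, Asf1a, H3f3a, H3f3b and Mki67, up to 3 called genes of highest mean CPM from each list in each regeneration comparison, any list gene called in HIRA KO against control, and the 3 genes most like each member. Oip5 is also a listed centromere partner. Pml, Ubxn6 and Kdm1b were named outside the rule, and 2 genes that the rule names are not reported here. Total counts of 15103059 to 21738619 set the precision, and intervals cover the fitted spread between libraries. Figures were drawn with matplotlib 3.10.9.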

Additional observations from a re-analysis of the deposited data

Results flagged for a closer look

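In the 32 sets of 4 libraries formed by the 8 chaperones and 4 groups, 2 held a library whose gap to its nearest neighbour took more of the range than Dixon's 95% critical value allows, where chance gives about 1 in 20. HIRA KO before library 3 held 1.36 CPM of Asf1b against 0.689 to 0.741 in the other 3, a gap of 0.923 of the range. Control before library 3 held 13.2 CPM of Nasp against 14.7 to 15.0 in the other 3, a gap of 0.840 of the range.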

How the results depend on the processing

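No paired analysis was possible because the columns of the tables carry neither the mouse nor the replicate numbers of the labels, and a fit with the deletion approach was not run for the same reason. Depth limits Asf1b, Chaf1a and Chaf1b most. Called members numbered 3 in control regeneration and 0 in the HIRA KO comparisons under every alternative run. In HIRA KO regeneration the 4 became 3 in the 5 fits that lost Daxx, and 3 without the 4 HIRA KO libraries that stood apart, an alternative chosen after seeing the data, where Asf1b was lost. Of the values recomputed under alternatives, 2007 kept direction and call, 184 lost the call, 20 gained it and 55 changed sign, and the causes were not tested.

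All sign changes were of values that did not pass the test. With limma on log2(FPKM + 0.1) the log2 fold changes were -0.067 for Chaf1a and 0.020 for Dek in HIRA KO against control before regeneration, 0.16 for Asf1b after it, 0.12 for Atrx and 0.12 for Asf1a in control regeneration, 0.070 for Atrx and 0.012 for Hjurp in HIRA KO regeneration, and -0.047 for Atrx and 0.022 for Chaf1a in the difference. With log2(FPKM + 1) they were -0.028 for Chaf1a and 0.018 for Dek, 0.023 for Asf1b, 0.095 for Atrx and 0.10 for Asf1a, 0.055 for Atrx and 0.012 for Hjurp, and -0.041 for Atrx in the difference. Without the 4 libraries that stood apart, HIRA KO against control gave -0.12 for Atrx, -0.38 for Chaf1b, -0.023 for Nasp and -0.072 for H3f3b before regeneration, -0.017 for Atrx, 0.10 for Chaf1a, 0.12 for Asf1b and 0.024 for Hjurp after it, and 0.033 for Chaf1a in the difference. CPM in place of FPKM gave 0.50 for the Chaf1b to Chaf1a ratio in HIRA KO regeneration, and CPM per kilobase left 3 genes in HIRA KO before and 4 in HIRA KO after regeneration at their place in the order of levels.

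Leaving out 1 library gave ranges across 0. In HIRA KO against control they were -0.027 to 0.10 for Atrx and -0.041 to 0.52 for Chaf1b before regeneration, and -0.025 to 0.13 for Daxx, -0.42 to 0.093 for Chaf1a, -0.51 to 0.13 for Asf1b and -0.15 to 0.078 for Hjurp after it. In control regeneration they were -0.044 to 0.20 for Nasp, -0.018 to 0.21 for Hjurp and -0.16 to 0.065 for Asf1a. In HIRA KO regeneration they were -0.16 to 0.0028 for Atrx, -0.13 to 0.040 for Hjurp, -0.053 to 0.16 for Dek and -0.39 to 0.092 for the Chaf1b to Chaf1a ratio, and in the difference -0.020 to 0.13 for Atrx. The Asf1b to Asf1a ratio ranged from 1.95 to 2.74 in control regeneration and from -1.02 to -0.23 in HIRA KO against control after it.

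Over all genes, calls in HIRA KO against control before regeneration were 9, against 36 without a filter, 375 with DESeq2, 25 and 5 with limma, 5 without the 4 libraries that stood apart and 1 to 33 with 1 library left out. After regeneration they were 113, against 228 with filterByExpr, 910 with DESeq2, 52 with upper quartile scaling, 68 and 61 with limma, 0 with the compared groups alone, 15 without the 4 libraries and 5 to 452 with 1 library left out. Regeneration in control gave 2350, against 3858 without the 4 libraries and 1530 without control after library 4. In HIRA KO it gave 2764, against 1431 with the compared groups alone and 1706 and 1678 without HIRA KO before library 3 and 4. The difference gave 0, against 67 with DESeq2, 1 without a filter, 1 with limma on log2(FPKM + 0.1) and up to 7 with 1 library left out.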

Other observations

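Once the group means were removed, the H3 chaperones still differed in which libraries they followed. Removing group means leaves in place the separation of HIRA KO libraries 1 and 2 from 3 and 4. Before regeneration libraries 1 and 2 held more Chaf1b, Nasp and Atrx than 3 and 4 in HIRA KO, and after it less Daxx. The part of this separation in the r values was not tested. Over the 16 libraries (deviations of log2(CPM + 1), a description in which libraries share their depth), Chaf1a went with Dek (r = 0.812), with Asf1b (0.801) and with Nasp (0.693), while Chaf1b went with Nasp (0.717) but not with Asf1b (0.005). Hjurp went with Dek (0.682) and Asf1b (0.638), and the partners Daxx and Atrx went in opposite directions (-0.514).

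Among the genes nearest to Asf1b on this measure were Ube2t (r = 0.920) and Wdr62 (0.918), and those nearest to Hjurp were Tube1 (0.83), Tk1 (0.827) and Uevld (0.824). Dek was nearest to Slfn9 (0.897), Lin54 (0.886) and Zfp367 (0.875). Chaf1a was nearest to Exosc2 (0.924), D030056L22Rik (0.903) and Bmpr1a (0.901), Chaf1b to Cep57 (0.882), Cyb5r1 (0.880) and Id1 (0.873), and Nasp to Gsta4 (0.920), D1Ertd622e (0.884) and Nup133 (0.881). Atrx was nearest to Agfg1 (0.936), Fam135a (0.934) and Ppp1r13b (0.927), and Daxx to Prpsap2 (0.882), Pdgfc (0.823) and Gm17823 (0.821).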
